A study of Mus musculus with 12 samples.

Results

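The core circadian clock genes are the genes whose products form the daily feedback loop of nearly every mammalian cell. The set was Per1, Per2, Per3, Cry1, Cry2, Arntl (also called Bmal1), Clock, Npas2 and Rora, chosen by name, and a gene entered when a probe set of the array was annotated to it alone. Of these 9 genes 8 were measured, each by 1 such probe set, out of 17656 genes measured in all, and for Npas2 no probe set with a single gene was annotated, so it was not analysed here. All 8 lay above system noise on every array.

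Expression was measured in the medial prefrontal cortex (mPFC) of 6 adult male C57BL/6 mice after chronic social defeat (CSD) and 6 male homecage (HC) controls housed in groups, all labelled wild type, with 1 Affymetrix Mouse Gene 1.0 ST array per mouse from 200 ng of total RNA. CSD mice lived for 14 days beside an aggressive CD-1 male and met it for 5 min per day, and the brain was collected 24 h after the final encounter. Mice of the stressed cohort entered only if they met criteria in the light/dark and social interaction tests, so the CSD group is a selected one. The sources used here give neither the age of the mice in weeks nor the hour of collection or the lighting schedule.

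In the clock, the proteins CLOCK and BMAL1 pair up, bind short DNA motifs called E-boxes and activate the Per and Cry genes. The PER and CRY proteins then accumulate, enter the nucleus and inhibit that pair, which closes the loop in about a day. A second loop sets the level of Arntl, which ROR proteins such as RORA activate and REV-ERB proteins repress through ROR elements. In cortex and other tissues outside the suprachiasmatic nucleus, the master clock of the hypothalamus, Arntl and the Per genes peak at opposite times of day. Transcription of Per1 and Per2 can also be induced acutely, through the factor CREB after stimulation and through the glucocorticoid receptor after stress hormone release.

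The promoter windows of 4 of these genes are printed because they hold letters of the motifs named above or of the related D-box. They come from RefSeq (GRCm38.p6), run 5′ to 3′ along the gene's own strand, and span 250 bases before to 50 after an annotated transcript start. Capitals mark matches on either strand to the E-box CACGTG, the E′-box CACGTT, the D-box TTATGNAA (bound by DBP and its relatives) and the ROR element, spelled AAGTAGGTCA with any base allowed at the next-to-last place. The cyclic AMP response element TGACGTCA was searched too. No marked match overlaps another.
Per1, chr11:69098699-69098998, plus strand: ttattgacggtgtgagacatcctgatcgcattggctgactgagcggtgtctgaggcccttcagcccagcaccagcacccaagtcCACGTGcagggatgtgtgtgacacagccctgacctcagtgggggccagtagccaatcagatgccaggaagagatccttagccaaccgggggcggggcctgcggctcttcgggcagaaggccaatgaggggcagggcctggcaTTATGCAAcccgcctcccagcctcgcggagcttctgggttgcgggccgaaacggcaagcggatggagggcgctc
Per3, chr4:151044616-151044915, minus strand: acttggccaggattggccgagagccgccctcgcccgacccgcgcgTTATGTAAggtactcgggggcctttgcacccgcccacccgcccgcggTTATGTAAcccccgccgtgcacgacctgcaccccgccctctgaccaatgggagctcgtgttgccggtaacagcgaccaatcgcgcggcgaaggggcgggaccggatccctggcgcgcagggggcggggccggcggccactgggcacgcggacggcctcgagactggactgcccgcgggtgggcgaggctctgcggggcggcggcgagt
Cry1, chr10:85185005-85185304, minus strand: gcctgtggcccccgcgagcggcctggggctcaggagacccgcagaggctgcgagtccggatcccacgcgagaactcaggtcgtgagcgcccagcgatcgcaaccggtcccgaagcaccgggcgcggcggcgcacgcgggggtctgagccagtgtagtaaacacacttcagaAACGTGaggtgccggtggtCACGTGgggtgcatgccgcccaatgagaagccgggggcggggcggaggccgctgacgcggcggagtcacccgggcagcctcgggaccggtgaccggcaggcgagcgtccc
Arntl, chr7:113207261-113207560, plus strand: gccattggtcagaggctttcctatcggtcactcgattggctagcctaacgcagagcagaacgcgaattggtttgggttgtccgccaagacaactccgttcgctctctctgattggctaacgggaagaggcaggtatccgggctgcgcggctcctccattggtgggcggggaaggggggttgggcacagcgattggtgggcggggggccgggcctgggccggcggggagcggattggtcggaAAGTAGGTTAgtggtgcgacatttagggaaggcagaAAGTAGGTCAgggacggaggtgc

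In the printed window, Per1 held an E-box 166 bases and a D-box 24 bases before the start. The window of another annotated Per1 start held no match to these letters. Per3 held a pair of D-boxes, at 205 and 158 bases before its start, while Cry1 held an E′-box at 79 bases and an E-box at 60. Arntl held a ROR element 9 bases before and another 28 bases after this start, and the first of them also falls in the window of a neighbouring Arntl start. Of 32851 RefSeq windows of this length, 7.15% hold the E-box, 4.68% the E′-box, 3.38% the D-box and 0.192% the ROR element. The ROR element was searched only in the spelling that fits both Arntl sites, so its share does not cover looser spellings. The cyclic AMP response element occurs in 1.79% of windows and had no match in the 12 windows found for 8 of the 9 genes. No window was found for Per2, so its promoter was not searched. The windows of Cry2 held 1 E′-box, and those of Clock, Npas2 and Rora held no match to these letters. A match is a description of the letters, not evidence that a factor bound there.

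None of the 8 core clock genes passed a test of the difference between CSD and HC mice. With p-values adjusted over all probe sets kept, limma called 0 of the 8 (adjusted p under 0.05 with a fold of 1.2 or more), as it did 0% of all genes, and the methods' t-test called 0 as well. The smallest adjusted p among the 8 was 0.614 from limma. Without adjustment, 0 of the 8 were lower and 0 higher at a limma p under 0.05, where 8.41% of all genes came under it, 6.52% lower and 1.89% higher. Lower by a fold of 1.2 or more at that p were 0 of the 8 and 0.6% of all genes. The methods' t-test likewise gave 0 in each direction. For 4 genes the mean was lower in CSD and for 4 it was higher, while 57.1% of all genes had a lower mean. The median log2 difference of the 8 genes was −0.02, against −0.01 over all genes tested. In a piece of tissue, fewer cells of a type and less RNA per cell cannot be told apart.

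Among the activators of the loop, Clock and Arntl had slightly higher means in CSD mice. Clock, which encodes the basic helix-loop-helix partner of BMAL1, had log2 values from 10.34 to 10.52 in CSD mice (median 10.45), against 10.42 to 10.47 in HC mice (median 10.43). All HC values fell inside the CSD range. The log2 difference of Clock was 0.01 (standard error 0.03, adjusted p = 0.975 from limma; exact permutation test, two-sided, p = 0.740), and its 95% interval ran from −4.23% to 5.65%, the tightest among the 8 genes. The sign turned with arrays centred on their medians (−0.0054) and without CSD replicate 9 (−0.0057).

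Arntl encodes BMAL1, the partner of CLOCK, and its loss alone stops the rhythm in mice. Its log2 values ran from 9.26 to 9.47 in CSD mice (median 9.35), against 9.16 to 9.44 in HC mice (median 9.29). The HC mice spread wider and held the lowest values, with 4 of 6 CSD mice above the HC mean. The log2 difference was 0.06 (standard error 0.06, adjusted p = 0.857 from limma; exact p = 0.351), with an interval from −4.71% to 13.7%.

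Rora, the nuclear receptor that activates Arntl, had log2 values from 9.14 to 9.48 in CSD mice (median 9.32), against 9.27 to 9.48 in HC mice (median 9.34). The ranges shared their upper end, and CSD replicates 2 and 10 lay below all HC mice. The log2 difference was −0.06 (standard error 0.06, adjusted p = 0.864 from limma; exact p = 0.372), with an interval from −12.4% to 5.40%. It was −0.02 without CSD replicate 2, −0.03 without CSD replicate 10 or without HC replicate 6, −0.04 without HC replicate 2 and −0.09 without CSD replicate 7.

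**Figure D1:**
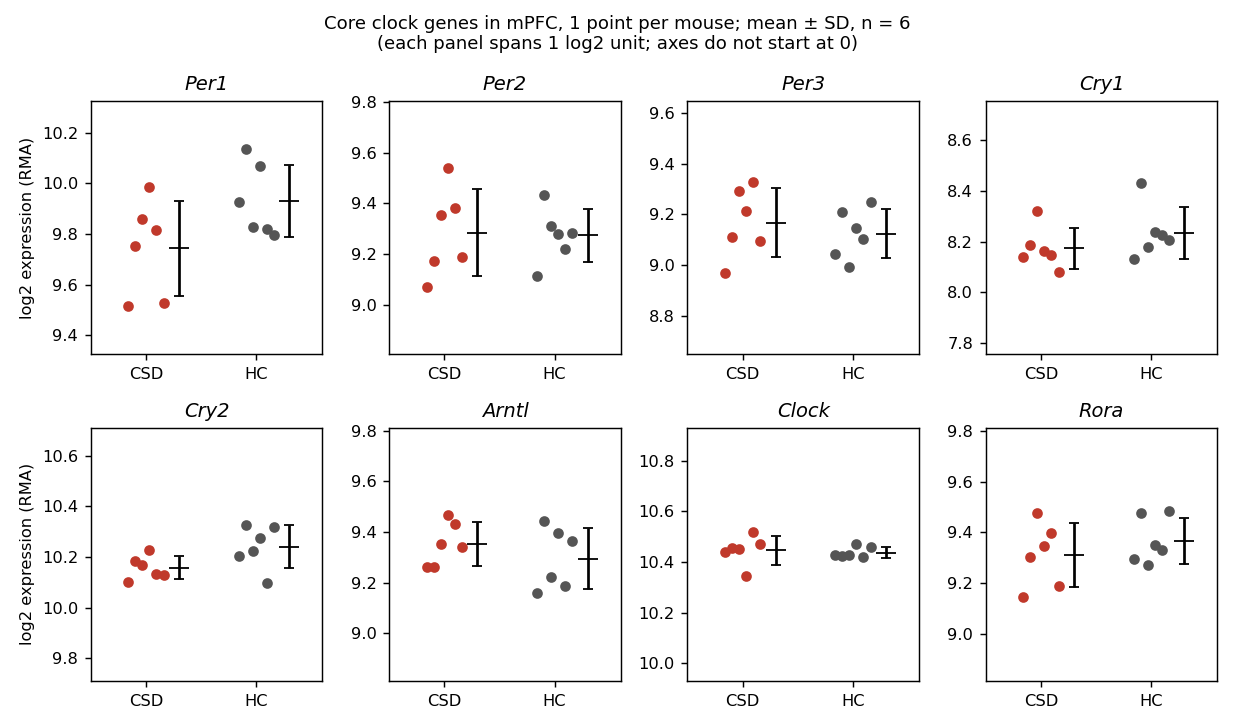
Log2 expression (vertical axis, RMA values, each panel spanning 1 log2 unit) of the 8 measured core clock genes, 1 point per mouse, with CSD in red on the left and HC in grey on the right, and mean ± SD (n = 6). The groups overlap in every panel, and Per1 shows the largest gap between means, 9.74 in CSD against 9.93 in HC mice.

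Among the repressors, Per1 had the largest difference of the 8 genes, and it did not pass. Per1, a period gene that light and stimulation induce, had log2 values from 9.52 to 9.98 in CSD mice (median 9.78), against 9.80 to 10.13 in HC mice (median 9.88). CSD replicates 2 and 10, at 9.52 and 9.53, lay below all the other mice, and 5 of 6 CSD mice lay below the HC mean. Per1 averaged 9.74 ± 0.19 in CSD and 9.93 ± 0.14 in HC mice (SD, n = 6 each), a log2 difference of −0.19 (standard error 0.09, adjusted p = 0.614 from limma; unadjusted p = 0.0567; exact permutation test, two-sided, p = 0.0866). The interval ran from −23.1% to 0.432%, and Per1 was the 1 gene whose interval reached past a fold of 1.2. In 8 of 24 alternative settings its unadjusted limma p came under 0.05, among them median-centred arrays and leaving out CSD replicate 7, CSD replicate 8, HC replicate 5 or HC replicate 6. The difference was −0.20 with median-centring and −0.23 without CSD replicate 8. Its lowest adjusted p over these settings was 0.442 from limma.

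Per2, whose protein acts with the CRY proteins in repression, had log2 values from 9.07 to 9.54 in CSD mice (median 9.27), against 9.11 to 9.43 in HC mice (median 9.28). The CSD mice held both the lowest and the highest value. The log2 difference of Per2 was 0.01 (standard error 0.08, adjusted p = 0.987 from limma; exact p = 0.907), with an interval from −10.3% to 13.1%. Its sign turned with median-centring and when HC replicate 1, HC replicate 5, CSD replicate 7, CSD replicate 8 or CSD replicate 9 was left out, with −0.04 without CSD replicate 8 as the lowest of these, and it turned to −0.24 with the replicate number as a block.

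Per3, a period gene that is not needed for rhythm in mice, had log2 values from 8.97 to 9.33 in CSD mice (median 9.16), against 8.99 to 9.25 in HC mice (median 9.12). The log2 difference was 0.04 (standard error 0.06, adjusted p = 0.902 from limma; exact p = 0.517). Here too the CSD range enclosed that of the HC mice.

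Cry1 and Cry2 encode the cryptochromes, which bind the CLOCK and BMAL1 pair directly. Cry1 had log2 values from 8.08 to 8.32 in CSD mice (median 8.16), against 8.13 to 8.43 in HC mice (median 8.22), and a log2 difference of −0.06 (standard error 0.05, adjusted p = 0.824 from limma; exact p = 0.292). Its highest value, in HC replicate 2, stood apart from the other HC mice, and without that mouse the difference was −0.02.
Cry2 had log2 values from 10.10 to 10.23 in CSD mice (median 10.15), against 10.10 to 10.33 in HC mice (median 10.25). All 6 CSD mice lay below the HC mean, although HC replicate 5 was the lowest of all. Cry2 averaged 10.16 ± 0.05 in CSD and 10.24 ± 0.09 in HC mice (SD, n = 6 each), a log2 difference of −0.08 (standard error 0.04, adjusted p = 0.655 from limma; exact p = 0.0649) with an interval from −11.5% to 0.632%. Without HC replicate 5 the difference was −0.11, with an unadjusted p of 0.0116 and an adjusted p of 0.360 from limma.

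The groups overlapped for all 8 genes, while 0.935% of all genes had every CSD mouse below every HC mouse and 0.0793% the reverse. For 7 of the 8 the 95% interval of the difference stayed within a fold of 1.2 in either direction. With 6 arrays per group, smaller differences within these intervals could not be told from none, and the p-values do not show that the levels were equal.

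**Figure D2:**
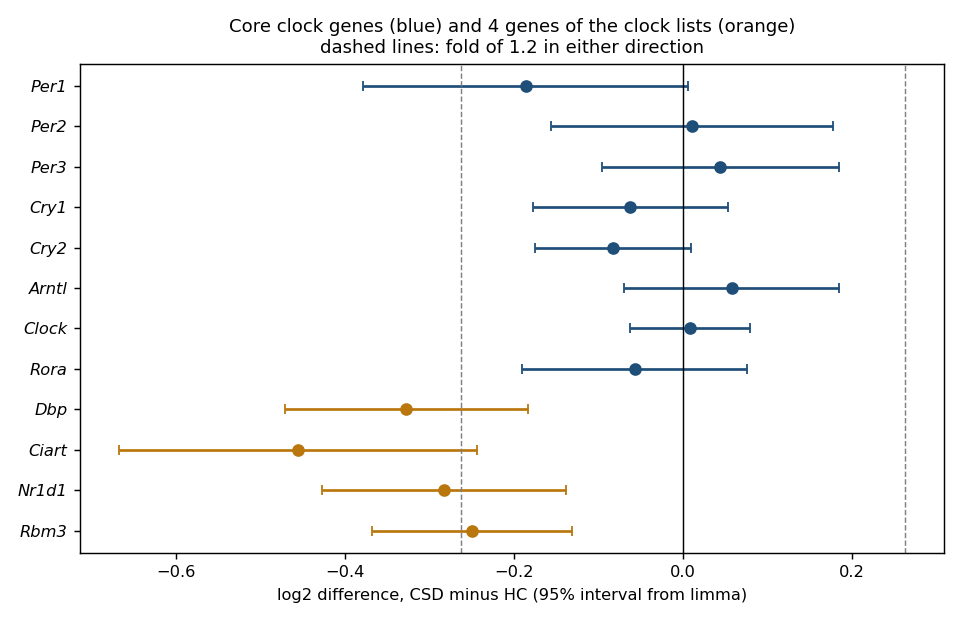
Log2 difference, CSD minus HC (horizontal axis), with its 95% interval from limma, for the 8 core clock genes (blue) and the 2 genes with the smallest p in each of the lists of clock regulators and clock outputs (orange). The dashed lines mark a fold of 1.2, and all blue intervals cross 0, whereas Dbp, at −0.33, and the other orange genes lie below it.

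Among the genes around the loop, some were lower in CSD at an unadjusted p. A list of 25 clock regulators, written with earlier results of these data known, held 21 measured genes, with lower CSD means for 15 and higher ones for 6, and a median log2 difference of −0.05. At an unadjusted p under 0.05 in limma 4 of the 21 were lower and 0 higher, where 6.52% of all genes were lower and 1.89% higher, and 0 passed the adjustment.
Ciart, a repressor of the CLOCK and BMAL1 pair, had log2 values from 9.60 to 10.19 in CSD mice (median 9.80), against 10.12 to 10.44 in HC mice (median 10.31). Its log2 difference was −0.46 (standard error 0.10, adjusted p = 0.171 from limma; exact p = 0.00433). Nr1d1, which encodes REV-ERBα, the repressor of Arntl, averaged 11.01 ± 0.13 in CSD and 11.29 ± 0.11 in HC mice (SD, n = 6 each), a log2 difference of −0.28 (standard error 0.07, adjusted p = 0.203 from limma; exact p = 0.00433).
The other regulators lower at an unadjusted p were Bhlhe41, an E-box repressor, at −0.27 and Cipc, an inhibitor of CLOCK, at −0.09, both named after their values were seen. The kinase genes Csnk1d and Csnk1e, whose products mark PER proteins for degradation, had log2 differences of −0.00 and −0.01.

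A list of 14 clock outputs held 13 measured genes, with lower CSD means for 9 and higher ones for 4, and a median of −0.02. At an unadjusted p under 0.05 in limma 4 were lower, 0 were higher and 0 passed the adjustment, where 6.52% of all genes were lower and 1.89% higher. This list too was written with earlier results of these data known, so its count is no test of clock outputs as a set. Dbp, a D-box activator driven by CLOCK and BMAL1, had log2 values from 10.30 to 10.66 in CSD mice (median 10.49), against 10.61 to 10.86 in HC mice (median 10.83), with an overlap through a single HC mouse, replicate 5. Its log2 difference was −0.33 (standard error 0.07, adjusted p = 0.145 from limma; exact p = 0.00433). Rbm3, an RNA-binding protein induced by mild cold, was lower in every CSD than in any HC mouse, at −0.25 (standard error 0.05, adjusted p = 0.177 from limma; exact p = 0.00216, the smallest the design allows). The other outputs lower at an unadjusted p, named after their values were seen, were Cirbp, a cold-induced relative of Rbm3, at −0.35, and Gpr176, an orphan receptor gene, at −0.14. Tef and Hlf, the relatives of Dbp, had log2 differences of 0.00 and −0.00, and they and the kinase genes were likewise named with their values known. Dbp, Rbm3, Ciart and Nr1d1 were picked as the smallest p of their lists, and their differences were not tested against those of the core genes.

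Per1 and Per2 also belong to the genes that neuronal activity and glucocorticoids induce, and those lists were therefore set beside them. Of 16 activity-induced genes 11 had a lower and 5 a higher CSD mean, 2 were lower and 0 higher at an unadjusted p in limma, and the median log2 difference was −0.14. Those 2 were Dusp1, a phosphatase of MAP kinases, at −0.43 (adjusted p = 0.453 from limma), and Junb, an AP-1 subunit, at −0.25 (adjusted p = 0.494 from limma). Of 15 measured glucocorticoid-responsive genes 9 had a lower and 6 a higher mean, with a median log2 difference of −0.04. In limma 3 were lower and 1 was higher at an unadjusted p under 0.05, where 6.52% and 1.89% of all genes were, and 0 passed the adjustment. Dusp1, which stands in both lists, and Pdk4, a kinase that limits pyruvate oxidation, at −0.17 (adjusted p = 0.457 from limma), had the smallest p. Named after their values were seen, Sgk1 was lower at that p as well, at −0.31, and Sult1a1 was higher, at 0.25. Fkbp5, at 0.26, and Zbtb16, at 0.22, had higher means without coming under it.

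Markers of mature oligodendrocytes moved with the group. All 9 measured markers of 10 were lower in CSD at an unadjusted p under 0.05 in limma, where 6.52% of all genes were. Their median log2 difference was −0.58, and their summed linear signal ran from 7572 to 10817 in CSD mice and from 10896 to 15779 in HC mice, without overlap. Mog, a myelin protein gene, had a log2 difference of −0.84 (adjusted p = 0.0986 from limma) and Ermn, a cytoskeletal gene of the same cells, one of −0.82 (adjusted p = 0.132 from limma). The lists of astrocytes, microglia, endothelial cells, striatal neurons, inhibitory neurons and choroid plexus had medians from −0.12 to −0.05, and excitatory neurons one of −0.00, with summed signals that overlapped between the groups. Single markers of these lists were lower at an unadjusted p in limma as well, namely S100b and Aqp4 of astrocytes (−0.18 each), P2ry12 of microglia (−0.14), Drd1 of striatal neurons (−0.16) and Tek of endothelial cells (−0.21), the last without overlap between the groups. The 6 markers of the suprachiasmatic nucleus had a median of 0.04, with Lhx1 and Prok2 within 1 log2 unit of noise, as were Clic6 and Ttr of the choroid plexus, and the 2 measured markers of red blood cells had one of 0.10. The cortical excitatory markers Slc17a7 and Camk2a had log2 values of at least 12.63 on every array. The part of these markers in the values of Per1 and Cry2 was not tested. The arrays had median log2 values from 8.02 to 8.11 apart from HC replicate 2, at 8.15, and limma gave HC replicates 2 and 6 its lowest array weights, 0.259 and 0.397.

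The 8 genes differed in how far mice of the same group lay apart. The pooled SD within groups was 0.17 for Per1 and 0.14 for Per2, at percentiles 93.0 and 85.0 among all genes measured. Rora, Per3 and Arntl had values of 0.11, 0.12 and 0.10, Cry1 had 0.09 and Cry2 0.07. Clock had 0.04, at percentile 3.73, and was thus among the steadiest genes of the array.

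Mice that were high in one of the core genes tended to be high in the others, Clock excepted over the 12 mice together, a description with no test. After subtraction of the group means, all 21 pairs among the 7 genes other than Clock had a positive Pearson r over the 12 mice, from 0.43 to 0.94 with a median of 0.63. Over pairs of genes in general, taking every 9th gene by symbol, the median was 0.17. The 7 pairs with Clock had r from −0.34 to 0.21. They differed by group, from −0.68 (Cry2) to 0.17 (Per3) within CSD and from −0.15 (Cry1) to 0.51 (Arntl) within HC. These pairs share arrays, and with arrays centred on their medians the 21 pairs had r from 0.09 to 0.91 with a median of 0.44, and the 7 pairs with Clock from −0.59 to 0.01. The closest pair was Per3 and Rora, at 0.94 (0.91 after centring, 0.93 within CSD and 0.96 within HC).
Among single mice, CSD replicate 7 lay above its group mean in all 8 genes, and CSD replicate 2, HC replicate 1 and HC replicate 5 lay below it in all 8. HC replicates 2 and 4 lay above it in 7.

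**Figure D3:**
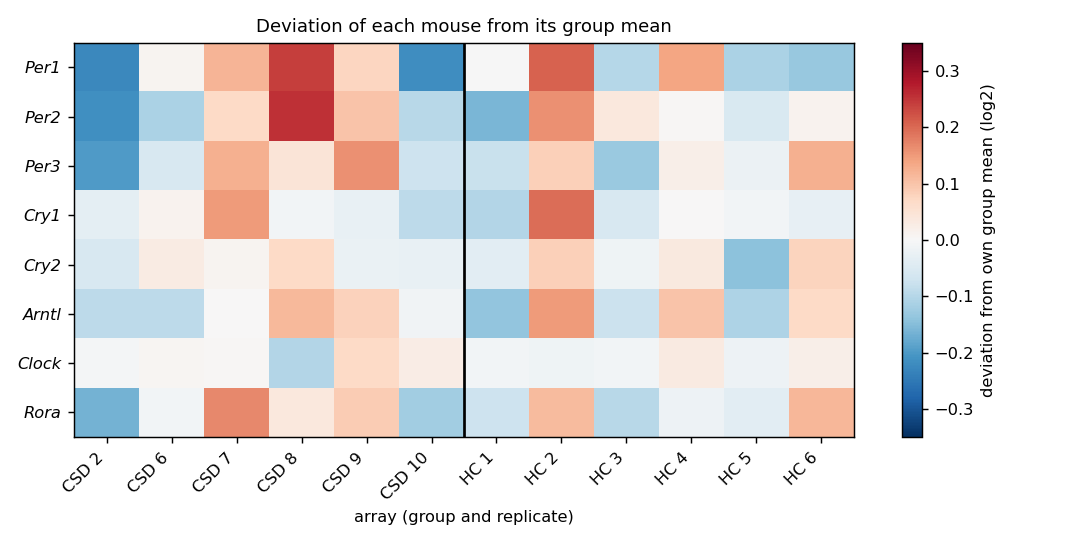
Deviation of each mouse from its own group mean on the log2 scale (colour) for the 8 core clock genes (rows) and the 12 arrays (columns, CSD left of the black line, HC right of it). Many columns tend to be of 1 colour, as in CSD replicate 2, below its group mean in all 8 genes. Others are mixed, as in CSD replicate 6, above in 4 and below in 4. In CSD replicate 8 Clock lay at −0.10, while 6 genes lay above their group means.

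Among mice of the same group, Arntl correlated positively with the Per genes. The relation of Arntl to each of the 7 other genes was tested over the 12 mice after subtraction of group means (permutation test with 100000 resamples, two-sided, adjusted over the 7 relations). The deviations were shuffled over all 12 mice, not within each group, which takes no account of the subtracted means. Adjusted p-values just under 0.05 are therefore not secure. Genes in general also tended to rise with Arntl, at a median r of 0.26, and the share of them that would pass was not computed. For Per2 Pearson's r was 0.79 (p = 0.00223, adjusted p = 0.0156) and Spearman's rho was 0.80 (adjusted p = 0.0174). Pearson's r was 0.93 within CSD mice (exact permutation p = 0.00556, adjusted p = 0.0389) and 0.78 within HC mice (exact permutation p = 0.0389, adjusted p = 0.0972). It was 0.76 without HC replicates 1 and 5, the arrays farthest from the median of Arntl (permutation adjusted p = 0.0429), and 0.72 after median-centring (permutation adjusted p = 0.0407). Spearman's rho passed in none of these settings, with a permutation adjusted p of 0.117 within CSD, 0.240 within HC, 0.0799 without HC replicates 1 and 5 and 0.159 after median-centring. Without HC replicates 2 and 6, a setting chosen after seeing the data, r was 0.77 and no longer passed (permutation adjusted p = 0.0652).
For Cry2 r was 0.72 (permutation adjusted p = 0.0231), for Per3 0.72 (adjusted p = 0.0246), for Per1 0.64 (adjusted p = 0.0447) and for Rora 0.63 (adjusted p = 0.0447). With arrays centred on their medians these r were 0.58, 0.58, 0.49 and 0.43, none of which passed. Spearman's rho was 0.77 for Cry2, 0.65 for Per3, 0.64 for Per1 and 0.56 for Rora, the last of which did not pass (permutation adjusted p = 0.0872). For Cry1 r was 0.49 (permutation adjusted p = 0.139) and for Clock 0.00 (permutation adjusted p = 0.993), the only relation of the 7 whose r had no steady sign over the settings tried.

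**Figure D4:**
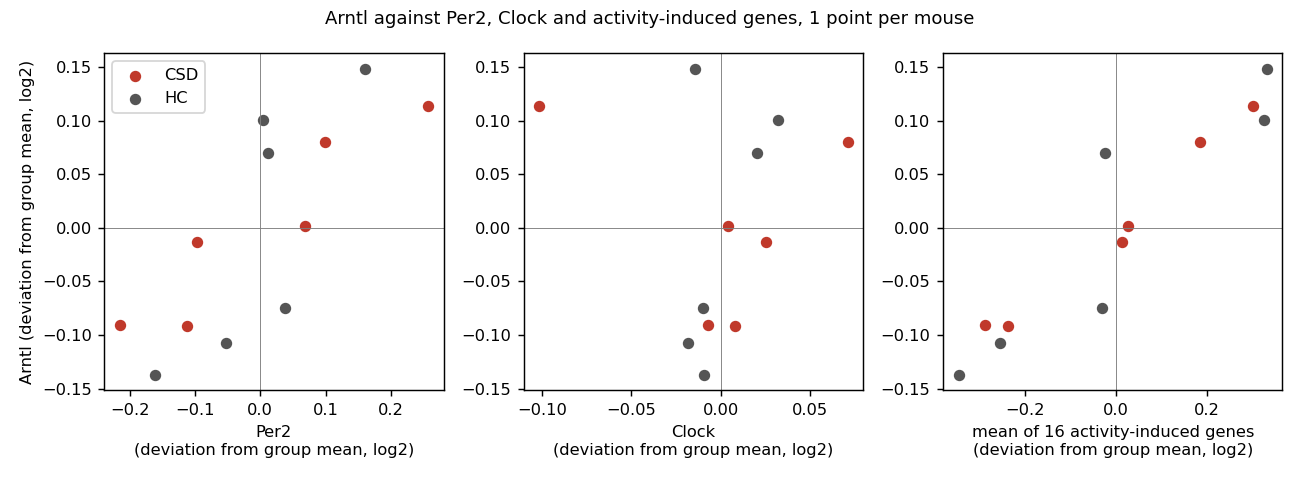
Arntl (vertical axis) against Per2, Clock and the mean of 16 activity-induced genes (horizontal axes), each as the deviation from the group mean on the log2 scale, 1 point per mouse, CSD in red and HC in grey. Points rise with Per2 (r = 0.79) and with the activity-induced genes (r = 0.94) in both groups. Against Clock they show no slope over the 12 mice (r = 0.00), with r of −0.26 within CSD and 0.51 within HC.

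The genes most like Arntl over the 12 mice, by Pearson r of the deviations among 17655 other genes, were Gramd3, Blnk, Junb, Rexo1 and Hs6st1, with r from 0.93 to 0.94, and the least like were Krtap16-3, Pigp, Gm6548, Rpl10l and Hnrnpk, from −0.83 to −0.74. Those most like Per2 were Inka2, Zfp692, Ier5, Cacna1g and Prrt3, from 0.94 to 0.97, and the least like were Hnrnpk, Spag6l, Matr3, Gpbp1 and Itfg1, from −0.91 to −0.82. The median r over all genes was 0.26 with Arntl and 0.25 with Per2. These ranks are a description over 12 arrays, and Per2 itself had a lower r with Arntl than the genes named.

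Since Junb stood among the genes most like Arntl, the 8 core genes were then set against the mean log2 value of the 16 activity-induced genes, a comparison chosen after seeing the data. The p-values below do not count the search over all genes that led to it. Most of the other core genes had already risen with Arntl on these same arrays. For all 8 genes these p-values are therefore a description and not a test. The deviations were again shuffled over all 12 mice and not within groups. Taking Junb out of the mean does not undo this choice. How genes in general relate to this mean was not computed. Arntl had an r of 0.94 over the 12 mice (permutation p = 1e-05, the smallest that 100000 resamples can give, adjusted over 8 relations p = 8e-05) and a rho of 0.95. The r was 0.99 within CSD mice (exact permutation p = 0.00556), where rho did not pass (exact permutation adjusted p = 0.0667), 0.92 within HC mice (exact permutation p = 0.00278), 0.91 after median-centring of the arrays, 0.90 when HC replicates 2 and 4 were dropped, the arrays farthest from the median of the activity-induced genes, and 0.94 with Junb taken out of the mean.
Per2 had an r of 0.83 (permutation adjusted p = 0.00348), with 0.93 within CSD (exact permutation adjusted p = 0.0222) and 0.82 within HC mice, where it did not pass (exact permutation adjusted p = 0.141). For Per1 r was 0.69 (permutation adjusted p = 0.0406) and for Cry2 0.64 (permutation adjusted p = 0.0478), and neither passed after median-centring or without HC replicates 2 and 4. Per3, Cry1, Rora and Clock had r of 0.61, 0.45, 0.51 and −0.03, and none of them passed.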

How the data were processed

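The authors deposited log2 values of 35556 probe sets on 12 Affymetrix Mouse Gene 1.0 ST arrays, 1 per mouse, made with RMA, per the labels and the methods (versions not given in the sources used here). RMA removes background, puts the arrays on a common scale and combines the probes of a set, so a value is relative to the other arrays. An array has no read depth, and the number of arrays limits the precision.

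The methods read system noise from a LOWESS fit and give no number for it, and it was set here to 5.75, below which 20% of the deposited values lie. As in the methods, probe sets never above it were dropped, which left 29838, and values under it were set to it. The difference CSD minus HC was fitted with limma 3.58.1 in R 4.3.3 (lmFit, eBayes, no covariate, two-sided), with p-values adjusted by Benjamini-Hochberg over all of these probe sets. Single genes were also tested with exact permutation over the 924 splits of 12 arrays into 6 and 6, whose smallest p is 0.00216. Correlations were computed with scipy 1.17.1 in Python 3.11.15. In the platform annotation 21789 probe sets have 1 gene, 1621 have several and 12146 have none, and the brightest probe set stood for a gene. The Entrez identifiers of all 8 measured genes were found in RefSeq.

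The genes and lists were chosen with earlier results of these data known. The rule named all core genes, the 2 genes with the smallest p in each list, and the 5 genes most and least like Arntl and Per2, and other genes were named after their values were seen. The design foresaw 8 relations with Arntl, and the 7 measured ones were adjusted together. The alternatives were the methods' t-test, other filters, floors, scalings and variance models, a replicate block, the mean over probe sets and leaving out each array. The fit was tested on simulated data.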

Additional observations from a re-analysis of the deposited data

Results flagged for a closer look

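The log2 value of Cry1 in HC replicate 2 was 8.43, and its gap to the next HC mouse, at 8.24, took up 0.648 of the spread between the lowest and highest HC mouse, more than Dixon's 95% limit for 6 values allows. It was the 1 value that stood apart in this way among the 16 groups of 6 values examined, where chance flags about 1 group in 20. The same array had the highest median of all arrays and the lowest quality weight, 0.259, and the part of these in the value was not tested.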

How the results depend on the processing

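Of 192 alternative values of the 8 differences, 172 kept their sign and their side of an unadjusted p of 0.05, 9 newly came under it (8 for Per1, 1 for Cry2) and 11 changed sign, all of them for Per2, Per3, Arntl or Clock. The number of core genes lower at an unadjusted p was 1 with only probe sets with 1 gene, with arrays centred on their medians, with array weights and with robust estimation under a mean-variance trend, and ranged from 0 to 2 when each array was left out. Over all genes, the lower ones numbered 1208, 1497, 1020 and 1163 in these settings and 860 to 1427 with each array left out. The main fit had 1151, or 6.52% of all genes. The 2 core genes came without HC replicate 5, which also gave the 1427. With median-centring the log2 differences of Per2 and Clock were −0.0035 and −0.0054. Leaving out single arrays gave Per2 differences from −0.041 to 0.053 and Clock differences from −0.0057 to 0.029. Over all genes, 21 passed the adjustment with only probe sets with 1 gene, 14 with the trend and 1 with quantile normalization. The genes higher at an unadjusted p numbered 562 with quantile normalization, 799 with array weights, and 187 to 961 with each array left out, against 334, the lowest without CSD replicate 9 and the highest without HC replicate 2. Without HC replicates 2 and 6 together, an alternative added after the data were seen, 593 genes were lower and 895 higher.

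The titles share only the replicate numbers 2 and 6 between the groups, and nothing ties equal numbers to each other. Same-numbered mice had correlations of deviations of −0.21 and −0.04, so the numbers were not taken as pairs. With the replicate number as a block, which leaves 1 residual degree of freedom, 192 genes were lower and 15 higher at an unadjusted p. The difference then rests only on the arrays numbered 2 and 6, the numbers that both groups share, and not on the group means. The HC arrays of these numbers had the lowest array weights, 0.259 and 0.397. In that setting 7 of the 8 core genes had a difference below 0, against 4 without the block. Per2, Per3 and Arntl turned to −0.24, −0.19 and −0.14, and Per1, Rora, Cry2 and Cry1 had −0.33, −0.26, −0.18 and −0.16. A crossed pairing was not run.

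At an adjusted p under 0.05, 5 of 7 genes correlated with Arntl, against 1 with median-centring, 2 without the arrays farthest from the median, 0 without HC replicates 2 and 6, 1 within CSD and 0 within HC mice. Of the 5, Per1 and Rora passed only narrowly (permutation adjusted p = 0.0447 each), in a test that shuffled deviations across the groups. The share of all genes that would pass the same test was not computed. Their median r with Arntl was 0.26, so these counts do not show a trait particular to the core genes. The r of Clock with Arntl was −0.24 with median-centring, −0.14 without the farthest arrays and −0.26 within CSD. It was 0.02 without HC replicates 2 and 6 and 0.51 within HC. The causes were not tested.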
